A study of Mus musculus with 12 samples.

Results

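The interferon-stimulated antiviral genes described here are a list of 40 genes, taken by gene name from the 24421 genes of the deposited table. They comprise 4 Irf and Stat transcription factors, 3 Ifit genes, 6 Oas genes, 3 Ifitm genes, 5 sensors of foreign nucleic acid, 5 GTPases, 6 genes of the ISG15, ubiquitin and ADP-ribose systems and 8 other effectors. RNA was sequenced from fetal thymocytes of mice on a C57BL/6 background, in 12 libraries that form 6 groups of 2. Every embryo lacked Rag1, so no T cell receptor gene could be rearranged, and every embryo carried Bcl6 fl/fl, in which loxP sites flank part of Bcl6. Controls were Rag1 KO Bcl6 fl/fl LckCre- and the KO groups were Rag1 KO Bcl6 fl/fl LckCre+, in which the Lck promoter drives Cre recombinase in the T lineage. There was no group with Cre and unfloxed Bcl6, so the presence of Cre and the loss of Bcl6 cannot be told apart. CD25 cells, the stage at which Rag1-deficient thymocytes stop, came from unstimulated thymi. ISP cells (immature single positive, CD8+CD4-) and DP cells (CD8+CD4+) came from thymi cultured on filters with anti-CD3 antibody (1 µg/ml, 2 days), which mimics a receptor signal. Embryos are given as E16.5 in the sample labels and as E17.5 in the treatment protocol. Nothing in the labels tells whether replicate libraries are separate embryos, cultures or preparations, so p-values measure only the spread between these samples, which may be technical.

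Interferons are secreted proteins that bind paired receptor chains and activate the kinases Jak1, Jak2 and Tyk2. The kinases phosphorylate Stat proteins, and complexes that hold Stat2 and Irf9 bind interferon-stimulated response elements (ISRE), while other Stat complexes bind gamma-activated sites (GAS). The induced genes encode proteins that recognise viral nucleic acid, block translation or membrane fusion, and raise or damp the response itself. BCL6, the protein that the floxed gene encodes, is a transcriptional repressor whose DNA motif resembles that of Stat proteins.

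The promoters of the members are shown because the response elements named above can be read in them. Stretches of 100 bases that end shortly before the transcription start are printed 5′ to 3′ on the gene's own strand, from RefSeq on GRCm38.p6, with capitals at every match to the ISRE-type letters, GAAA followed after any 2 bases by GAAA, or the GAS-type letters TTCNNNGAA on either strand. The genes stand for the ubiquitin-like, Ifit, Oas and GTPase groups, for Bst2, called below for a difference between populations, and for Irf1, which had a GAS-type match in the printed stretch and no ISRE-type match there.
Isg15 (minus strand, chr4:156200842-156200941): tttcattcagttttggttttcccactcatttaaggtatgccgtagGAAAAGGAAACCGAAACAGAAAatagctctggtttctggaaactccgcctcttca
Ifit1 (plus strand, chr19:34640740-34640839): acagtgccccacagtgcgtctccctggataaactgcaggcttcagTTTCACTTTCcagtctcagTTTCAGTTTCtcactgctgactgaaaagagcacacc
Oas1a (minus strand, chr5:120907526-120907625): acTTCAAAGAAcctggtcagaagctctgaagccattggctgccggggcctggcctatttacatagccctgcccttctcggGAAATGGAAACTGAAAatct
Gbp2 (plus strand, chr3:142620559-142620658): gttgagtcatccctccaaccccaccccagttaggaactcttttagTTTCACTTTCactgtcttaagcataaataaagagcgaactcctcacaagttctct
Igtp (plus strand, chr11:58199456-58199555): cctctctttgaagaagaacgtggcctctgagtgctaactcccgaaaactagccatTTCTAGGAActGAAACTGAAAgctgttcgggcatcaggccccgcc
Bst2 (minus strand, chr8:71537548-71537647): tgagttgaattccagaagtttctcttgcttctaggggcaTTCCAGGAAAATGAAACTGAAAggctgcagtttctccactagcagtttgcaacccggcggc
Irf1 (plus strand, chr11:53769878-53769977): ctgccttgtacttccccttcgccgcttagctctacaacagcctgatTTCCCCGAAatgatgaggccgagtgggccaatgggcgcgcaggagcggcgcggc

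Promoters, each from 250 bases before to 50 after the start, were in the RefSeq table for 30 of the 40 members, matched by symbol. An ISRE-type match lay in 17 of these 30 (56.7%), against 3.89% of the promoters of the 8512 tested genes that the table holds. A GAS-type match lay in 9 of 30 (30%), against 8.51%. The BCL6-type letters TTCCTNGAA, every match of which is also a GAS-type match, lay in 3 of 30 (10%), those of Ifit2, Igtp and Bst2, against 1.52%. A match is a run of letters and not a measured binding site. The members without a promoter in the table were Oas2, Dhx58, Zbp1, Mx1, Mx2, Usp18, Parp9, Parp14, Rtp4 and Ifi27l2a.

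Several members are neighbours on GRCm38, by the GENCODE M21 annotation. Oas2, Oas3, Oas1g and Oas1a lie in a row between 120730333 and 120907521 on chromosome 5, Ifit2, Ifit3 and Ifit1 between 34550694 and 34650009 on chromosome 19, and Ifitm2, Ifitm1, Ifitm3 and Irf7 between 140954837 and 141266481 on chromosome 7. Parp14, Dtx3l and Parp9, and separately Mx1 and Mx2, adjoin on chromosome 16. Exons of 15 members overlap those of another gene, such as Dtx3l with Parp9 on opposite strands, and the strand setting of the authors' counting is not given in the sources used here. Oas1a and Oas1g, and Ifit3 and Ifit3b, are related copies, and how the authors' counting treated reads that match both is not given in the sources used here, so values of these genes are uncertain to that extent.

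Reads recovered from the deposited values summed to between 9658180 and 14228715 per library. Levels are in RPKM, reads scaled by gene length and library size, and for a gene 1000 bases long a read added between 0.0697 and 0.105 RPKM. The groups follow the sample titles, but the name of the sequencing library contradicts the title on population or genotype in 6 of the 8 anti-CD3 libraries, and the stage label of some samples also differs from the title. The sorted populations matched their titles by marker level. Il2ra, which encodes CD25, was at 538 to 603 RPKM in CD25 libraries and at 14.5 to 44.7 in the others, and Cd4 ranged over 1.03 to 1.78 RPKM in CD25, over 13.9 to 20.5 in ISP cells and over 190.6 to 344 in DP cells. No such check exists for genotype: Bcl6 was at 11.9 and 11.6 RPKM in ISP control against 18.9 and 25.1 in ISP KO, and at 72.5 and 70.0 against 87.8 and 111 in DP. A value for the whole gene does not show the floxed part, so it neither shows nor excludes deletion, and every genotype difference below rests on the titles.

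Between genotypes, nearly every member was higher in KO than in control libraries in each population, with the most calls in DP cells. A gene was called when its limma p-value, adjusted over every tested gene by the Benjamini-Hochberg method, was under 0.05, and differences are on the log2(RPKM + 1) scale, which understates the change of low genes. In DP cells 27 of the 39 tested members rose in KO and none fell, against a background of 14.1% of 11301 tested genes called higher and 7.77% called lower. In ISP cells 6 members rose and none fell, against 0.257% higher and 0.0973% lower, and all 6 (Ifih1, Ifitm3, Oas1a, Oas2, Oasl2 and Rtp4) were also among the 27 of DP. In CD25 cells limma called 0 of 39 members, with 0.0094% of 10634 genes called higher and 0.0094% called lower. There 32 members had an unadjusted p under 0.05, all of them higher in KO, where 4.79% of genes were higher and 4.35% lower at that level, and the voom weighting of recovered reads called 2, Irf7 and Rtp4. At an unadjusted p under 0.05, 30 members were higher and 0 lower in DP (20.5% and 14.9% of all genes), 30 higher and 1 lower in ISP (6.78% and 6.44%), and voom called 0 lower in either. The member that did not reach 1 RPKM in 2 libraries and was not tested was Oas1g.

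The size of the difference was modest in every population. The median over tested members was 0.34 in CD25, 0.49 in ISP and 0.64 in DP cells, beside medians of 0.01, -0.01 and 0.00 over all tested genes. Both KO libraries lay above both control libraries for 36 of 40 members in CD25 cells (21.8% of all tested genes), for 37 in ISP (21.1%) and for 35 in DP (32%). For 30 members this was so in all 3 populations, as it was for 2.5% of all tested genes. In the fit of the CD25 libraries Ifi44 passed the filter only through its KO libraries, so its direction there was fixed by the filter.

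The number of called members rested on few libraries and on the titles. Grouping the anti-CD3 libraries by sequencing library name calls all 4 libraries titled ISP control and all 4 titled DP KO. Its genotype contrasts thus set libraries titled DP against libraries titled ISP, so they are no check of the genotype calls. By title, 35.6% of all genes rose and 35% fell from ISP to DP. The number of members called was then 5 higher and 4 lower in ISP and 4 higher and 5 lower in DP. In DP cells it was 13 without DP control library 2 and 15 without DP KO library 2, and 24 with the libraries rescaled to equal sums, where 8.43% of genes were called higher and 15.7% lower. In ISP cells it was 1 without ISP control library 2, 1 without ISP KO library 2, 3 without ISP KO library 1, 1 with no filter on low values and 17 with voom; in CD25 cells it was 10 without CD25 KO library 2 and 2 without CD25 KO library 1. Shares of all genes called are not given for the fits without a library, without the filter, with voom or by library name. Members also moved together between the libraries of a group, so their number is not a number of independent observations. Library 1 was above library 2 for 37 of 40 members in CD25 KO, for 30 in ISP KO and for 29 in each of ISP control and DP control, but for 12 in DP KO and 16 in CD25 control. Over all tested genes these shares ran from 47.9% to 51.9%.

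**Figure D1:**
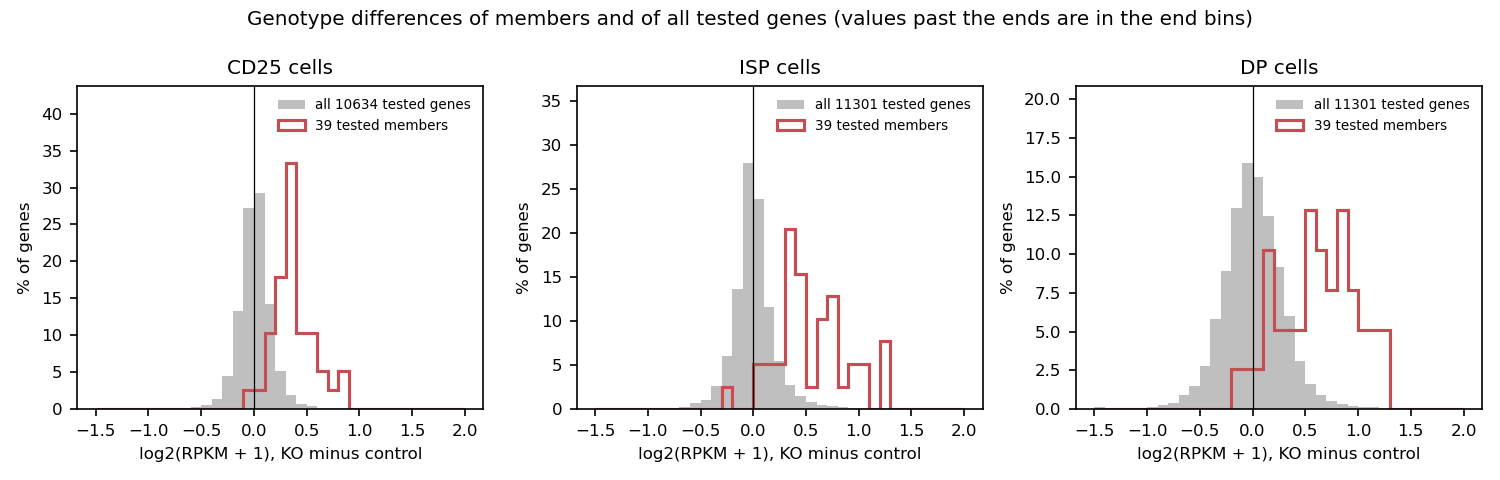
Distribution of the difference between genotypes, KO minus control, on the log2(RPKM + 1) scale for the 39 tested members (red outline) and for all tested genes (grey), as a percentage of each set in CD25, ISP and DP cells. Grey centres on 0 in each panel, while the members' medians are 0.34, 0.49 and 0.64.

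The Irf and Stat members encode the factors that carry the signal to the genome. Irf7, a factor that amplifies interferon production, was at 11.4 and 7.40 RPKM in DP control and 16.4 and 18.6 in DP KO libraries, at 15.5 and 12.2 against 26.0 and 21.3 in ISP, and at 32.9 and 34.4 against 56.7 and 49.3 in CD25 cells. The genotypes did not overlap in any population, and Irf7 rose in DP KO by 0.86 ± 0.17 (SE, limma adjusted p = 0.00467) but was not called in ISP (0.74 ± 0.17, adjusted p = 0.0879) or CD25 cells (0.64 ± 0.09, adjusted p = 0.119). Irf9, the DNA-binding partner of Stat2, rose in DP KO by 0.48 (limma adjusted p = 0.0133). Irf1, an activator of antiviral genes, was at 20.6 and 17.3 RPKM in DP control and at 26.9 and 29.3 in DP KO, a rise of 0.55 (limma adjusted p = 0.00282), while its ISP libraries stood within 37.1 to 38.9. Stat2 went the other way in DP cells: its control libraries, at 19.8 and 21.7 RPKM, were above its KO libraries, at 19.3 and 17.4, and it was not called (-0.17 ± 0.09, limma adjusted p = 0.23).

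The Oas genes, whose products make the second messenger that activates an RNA-degrading enzyme, held 3 of the 6 calls in ISP cells. Oas2 was at 1.80 and 0.888 RPKM in ISP control and 4.30 and 4.98 in ISP KO, and at 0.787 and 1.10 against 3.30 and 3.97 in DP cells. The KO libraries were clear of the controls in both, a ratio of mean RPKM of 3.45 in ISP and 3.85 in DP, and Oas2 rose by 1.29 ± 0.18 (limma adjusted p = 0.0181) and 1.26 ± 0.18 (limma adjusted p = 0.001). In CD25 cells Oas2 stood at 11.8 and 11.2 against 19.2 and 15.4 RPKM, higher in both KO libraries but not called (0.54, limma adjusted p = 0.229). Oas1a was at 2.63 and 1.27 RPKM in ISP control and at 6.34 and 5.73 in ISP KO, and rose in KO by 1.29 ± 0.20 in ISP (limma adjusted p = 0.0219) and by 0.86 ± 0.20 in DP (limma adjusted p = 0.0119). Oasl2, an Oas-like gene, had the highest ratio of the members tested in DP, 5.45, with 0.424 and 0.287 RPKM in control and 1.43 and 2.45 in KO. These levels rest on 14, 11, 52 and 73 reads, and the rise was 1.10 ± 0.15 (limma adjusted p = 0.000745), beside 1.08 ± 0.15 in ISP (limma adjusted p = 0.0181) and a difference of 0.45 in CD25 cells that was not called. Oas3 rose in DP KO (0.81, limma adjusted p = 0.0135). Oasl1 did not separate the genotypes in DP cells, with 0.805 and 1.00 RPKM in control and 0.893 and 1.19 in KO. The untested Oas1g had at most 9 reads in any library.

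**Figure D2:**
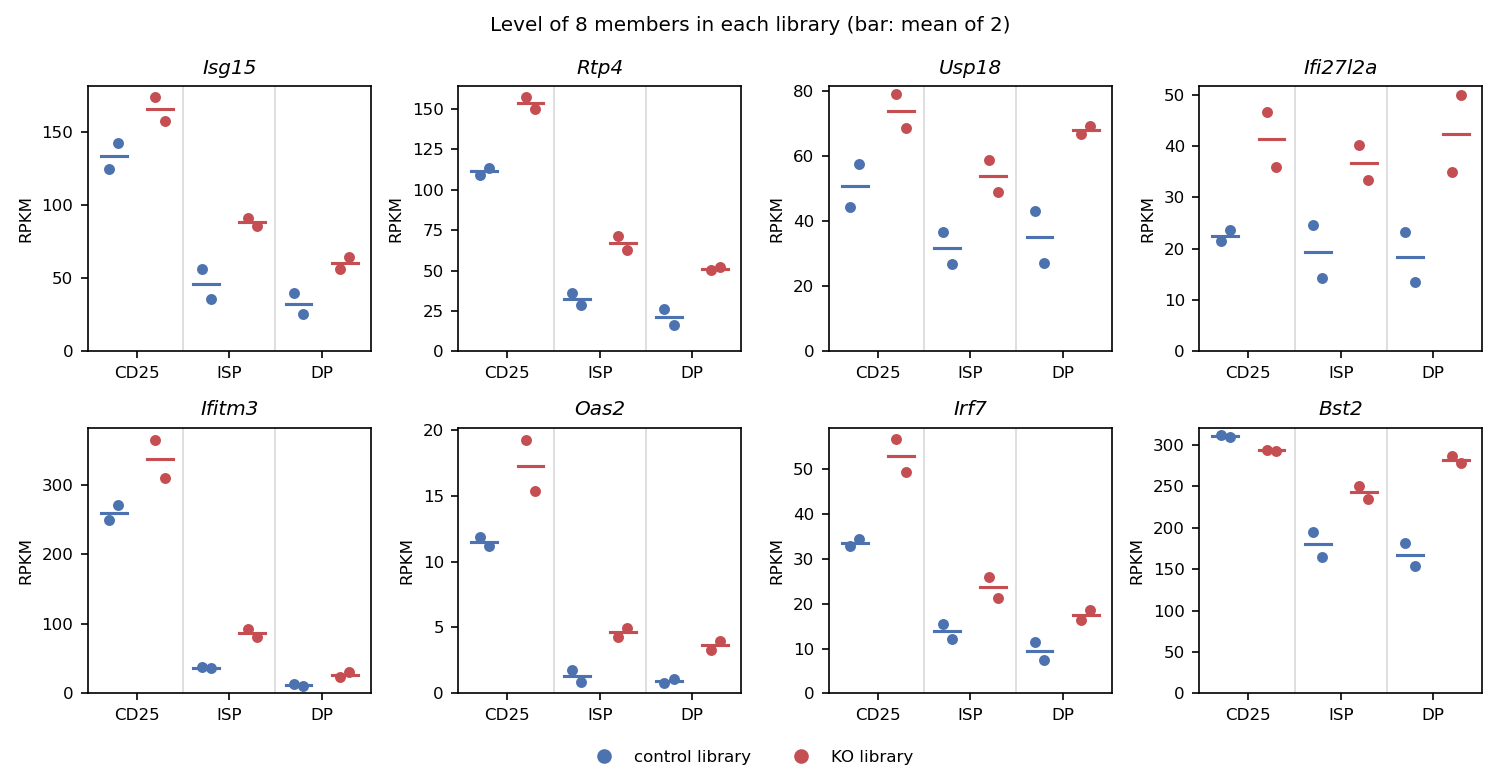
RPKM of 8 members in each of the 12 libraries (points), with the mean of the 2 libraries of a group (bar), for CD25, ISP and DP cells; blue is control and red is KO. KO points are above control points in every panel except Bst2 in CD25 cells, where the KO libraries (294 and 292 RPKM) lie below the controls (312 and 309).

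The Ifit genes encode proteins that bind viral RNA and block its translation. Ifit1 was at 2.63 and 1.83 RPKM in DP control and 4.35 and 6.66 in DP KO libraries, and rose by 1.00 ± 0.17 (limma adjusted p = 0.0022). In ISP cells it was at 3.82 and 4.62 against 7.97 and 8.69 RPKM, again without overlap, and was not called (0.84 ± 0.17, limma adjusted p = 0.0632). Ifit3 had its highest ratio in CD25 cells, 2.02, with 2.89 and 3.23 RPKM in control and 6.66 and 5.73 in KO (0.82 ± 0.13, limma adjusted p = 0.142). Ifit2 differed in direction from its neighbours on the chromosome in ISP cells, where its controls, at 9.09 and 8.32 RPKM, were above its KO libraries, at 6.87 and 7.00 (-0.29 ± 0.09, limma adjusted p = 0.166, not called).

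The Ifitm genes encode membrane proteins that hinder viral fusion. Ifitm3 was at 37.7 and 36.0 RPKM in ISP control and at 92.8 and 81.1 in ISP KO, and at 12.9 and 10.5 against 23.4 and 30.2 in DP. It rose by 1.21 ± 0.13 in ISP (limma adjusted p = 0.00642), with a ratio of mean RPKM of 2.36, and by 1.13 ± 0.13 in DP (limma adjusted p = 0.000292). Ifitm2 rose in DP KO by 0.61 (limma adjusted p = 0.0214), from 8.03 and 5.09 to 12.2 and 8.72 RPKM. Ifitm1 did not separate the genotypes in DP, with 2.60 and 5.07 RPKM in control and 9.55 and 3.00 in KO, and its SE of 0.35 was the widest of the members there.

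Among the sensors, 4 of 5 rose in DP KO. Dhx58 (encoding LGP2), a regulator of the RNA sensors, was at 1.73 and 1.97 RPKM in control and 4.26 and 4.10 in KO (0.86, limma adjusted p = 0.00183), and Zbp1, a sensor of Z-form nucleic acid, at 13.3 and 10.2 against 19.6 and 23.0 (0.81, limma adjusted p = 0.0021). Ddx58 (RIG-I) rose by 0.52 and Ifih1 (MDA5) by 0.64 (limma adjusted p = 0.0212 and 0.00748). Ifih1 was also called in ISP, at 2.20 and 2.00 against 4.63 and 3.88 RPKM (0.76 ± 0.14, limma adjusted p = 0.0433). Eif2ak2 (PKR), the kinase that halts translation on sensing double-stranded RNA, was higher in both KO libraries of every population by 0.13 to 0.33 and was called in none.

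Of the 5 GTPases, 4 rose in DP KO. Mx1 was at 0.224 and 0.193 RPKM in DP control and 0.783 and 1.06 in DP KO, a ratio of 4.43 that rests on 7, 7, 27 and 30 reads (0.67, limma adjusted p = 0.0111). Gbp2, a guanylate-binding protein, rose by 0.77, and Irgm1 and Igtp, GTPases that act on the vacuoles of intracellular microbes, by 0.71 and 0.32 (limma adjusted p = 0.00519, 0.000848 and 0.017). Mx2 was at 1.10 and 1.11 against 2.92 and 1.91 RPKM and was not called (0.68, limma adjusted p = 0.062).

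Isg15 and Usp18, the ubiquitin-like protein and the protease that removes it, rose in DP KO, and the ubiquitin ligase and ADP-ribose genes of this subfamily were not called. Isg15 was at 39.8 and 25.3 RPKM in DP control and 56.6 and 64.8 in DP KO (0.91 ± 0.20, limma adjusted p = 0.00918). Usp18 was at 43.3 and 27.0 against 66.9 and 69.4 RPKM (0.97, limma adjusted p = 0.00609). In both, the control libraries differed from each other by over 10 RPKM and still lay below the KO libraries. Trim25, Dtx3l, Parp9 and Parp14, which encode the ligase that activates RIG-I, a ligase and the ADP-ribose writers, differed by 0.10 to 0.26 in DP and were not called there or in ISP, where Isg15 was not called either (0.96 ± 0.20, limma adjusted p = 0.0735).

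Of the other effectors, 7 of 8 rose in DP KO. Rtp4, a transmembrane protein that restricts RNA viruses, was at 26.0 and 16.2 RPKM in DP control and 50.1 and 52.1 in DP KO, and at 36.3 and 28.6 against 71.3 and 62.8 in ISP. It rose by 1.28 ± 0.16 in DP (limma adjusted p = 0.000554), the largest called difference there on the log2 scale, and by 1.03 ± 0.16 in ISP (limma adjusted p = 0.0219). Its CD25 libraries, at 109 and 114 against 157 and 149.7 RPKM, also did not overlap and were not called (0.46 ± 0.06, limma adjusted p = 0.124).
Ifi27l2a, encoding a small mitochondrial membrane protein, was at 23.3 and 13.5 RPKM in DP control and 35.0 and 49.9 in DP KO (1.19 ± 0.27, limma adjusted p = 0.00932), and its ratio was 1.83 in CD25 and 1.89 in ISP cells. Xaf1, linked to cell death, rose in DP by 1.05 ± 0.15 (limma adjusted p = 0.00112), from 3.58 and 2.05 to 6.34 and 7.21 RPKM. Rsad2 (viperin), Isg20 (an exonuclease), Ifi35 and Bst2 (tetherin, which holds virions at the cell surface) rose in DP by 0.53, 0.53, 0.51 and 0.75 (limma adjusted p = 0.0472, 0.0288, 0.00194 and 0.00031). The remaining gene, Ifi44, had 0 to 3 reads in each ISP and DP library.

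**Figure D3:**
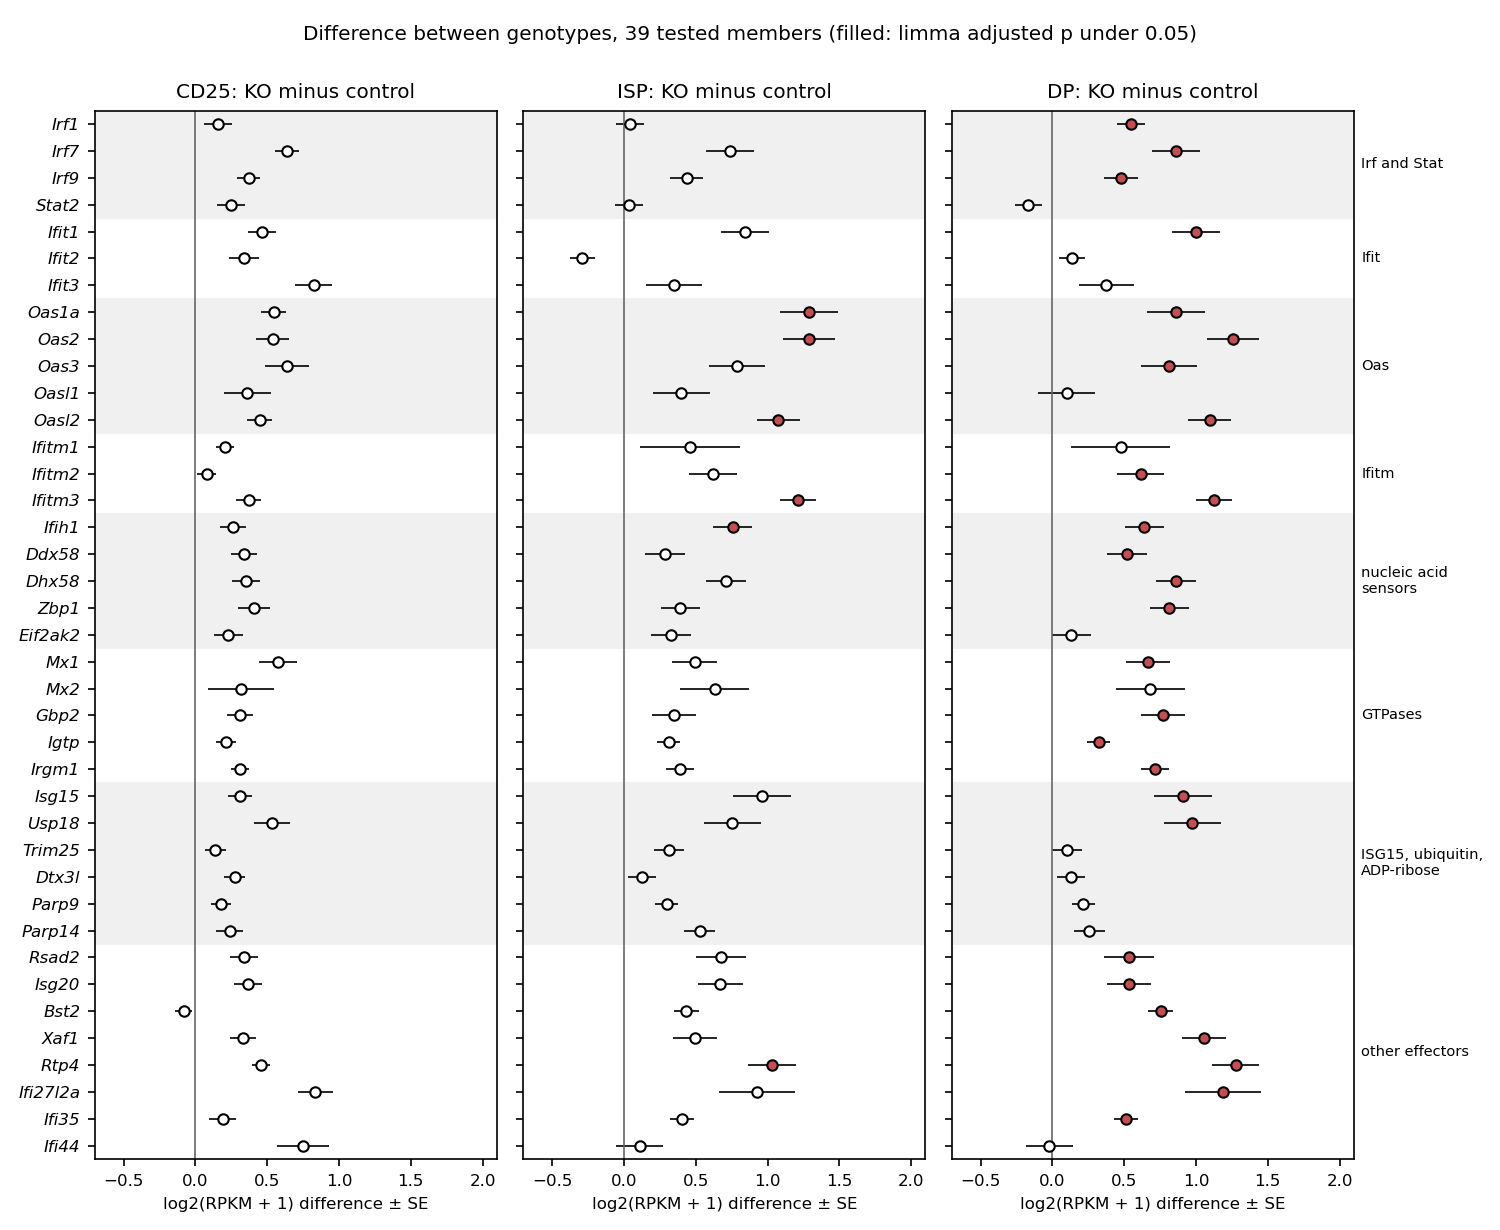
Difference between genotypes (KO minus control, log2(RPKM + 1), point ± SE) of the 39 tested members in CD25, ISP and DP cells, ordered by subfamily; filled points passed limma at an adjusted p under 0.05. Filled points number 0 in CD25, 6 in ISP and 27 in DP, and the points left of 0 are Bst2 in CD25, Ifit2 in ISP, and Stat2 and Ifi44 in DP.

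Members with larger differences between genotypes in ISP tended to have larger ones in DP. Across the 39 tested members, Pearson's r between the ISP and DP differences was 0.797 and Spearman's rho 0.805, while r was 0.329 for CD25 with ISP and 0.305 for CD25 with DP. Over the 10634 genes tested in all 3 comparisons these r were 0.366, 0.113 and -0.04. These are descriptions across genes, which are not independent, and the ISP and DP libraries came from the same kind of culture. Control libraries of one number also shared a pattern of sex-linked transcripts, given below, so the ISP and DP differences may not be independent. By subfamily the median difference ran in ISP from 0.24 in Irf and Stat genes to 1.08 in Oas genes, and in DP from 0.24 in the ISG15, ubiquitin and ADP-ribose genes to 0.86 in Oas genes. In CD25 cells the subfamily medians were closer, from 0.21 in Ifitm genes to 0.54 in Oas genes. In DP, 13 of the 16 tested members with an ISRE-type match in the promoter were called, beside 7 of 13 without, where 24.5% of all tested genes with a match and 13.8% of those without were called higher. In ISP 3 of 16 and 1 of 13 were called (1.81% and 0.196% of all tested genes), and in CD25 the members' medians were 0.31 with and 0.34 without a match.

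The test of whether the difference between genotypes itself differed called 3 members, all between DP and CD25 cells. Bst2 was at 181 and 153 RPKM in DP control and 286 and 278 in DP KO, whereas in CD25 cells the KO libraries were the lower, at 294 and 292 against 312 and 309. The difference was larger in DP by 0.84 ± 0.12 for Bst2 (limma adjusted p = 0.00363), by 0.76 ± 0.18 for Ifitm3 (limma adjusted p = 0.0189) and by 0.82 ± 0.23 for Rtp4 (limma adjusted p = 0.0404), where 8.39% of all genes were called in this direction and 3.94% in the other. Of the 39 tested members, 0 were called in the other direction, 2 had an unadjusted p under 0.05 there (12.1% of all genes), and voom called 1, Stat2; 12 were higher at that level (16.3%). Between ISP and CD25, limma called 0 members, as it called 0% of all genes, with 9 members higher and 2 lower at an unadjusted p under 0.05 (4.49% and 5.29% of all genes) and 1 (Ifitm3) called by voom. Between DP and ISP it called 0, where 3.67% and 0.522% of genes were called higher and lower, with 6 higher and 0 lower at an unadjusted p under 0.05 (14.2% and 7.42%) and 1 (Irf1) called by voom. The count of 3 fell to 1 without library 2 of CD25 control, CD25 KO, DP control or DP KO and became 5 without library 1 of DP control or DP KO. With libraries rescaled to equal sums, which moved the median of all genes in this test to -0.12, it was 2 higher and 2 lower, against 4.71% and 9.78% of all genes, and between DP and ISP 1.73% and 0.885% were called. A larger number of calls in DP than in CD25 cells is therefore not a shown difference for most members.

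Other measured properties moved with genotype. In DP KO, Cd4 fell by 0.64 and Il2ra by 0.66 (limma adjusted p = 0.0253 and 0.0127), and Epcam rose by 0.39 (limma adjusted p = 0.00274). Il2ra went the other way in ISP, at 29.9 and 24.2 RPKM in control against 43.3 and 44.7 in KO, and was higher in both CD25 KO libraries. The summed level of 9 myeloid markers, all above 0 in some library, was 43.1 and 39.1 RPKM in CD25 control against 60.4 and 59.2 in KO, 58.8 and 87.0 against 114 and 124 in ISP, and 24.0 and 16.45 against 61.8 and 93.2 in DP. Lyz2, the lysozyme of myeloid cells, rose in KO by 2.55 in ISP and 2.51 in DP (limma adjusted p = 0.0189 and 0.00112), and made up 43.8 and 65.2 RPKM of the DP KO sums; Fcer1g, also expressed by NK cells, made up 60.3 and 56.4 RPKM of those in ISP KO. Fcer1g overlapped in ISP, with 39.1 and 65.9 RPKM in control, and was at 4.91 and 2.86 in DP control against 8.52 and 12.9 in DP KO. Csf1r, Adgre1 and Ly6c2 were higher in both KO than in both control libraries of every population. Their ratios of mean RPKM in DP were 4.52, 5.48 and 5.19, with Csf1r at most 2.23 and Adgre1 at most 1.62 RPKM. Cd14 was at 0 in both DP controls and at 0 and 1.77 in DP KO. Cd68 was not called in any population, Itgam was at 1.89 and 2.29 RPKM in DP control and 2.06 and 1.42 in DP KO, and Mpeg1 was at most 0.257 RPKM in any library. The 8 NK and innate lymphoid markers summed to 126 and 112 RPKM in DP control against 177 and 217 in KO, of which Gzma took 103 and 93.2 against 146 and 187, and did not separate the genotypes in ISP (1031 and 1247 against 1124 and 1159). In CD25 cells these markers summed to 590.2 and 622 RPKM in control against 779 and 691 in KO. Gzma took 362 and 376 against 495 and 449 of this and was not called (0.35, limma adjusted p = 0.189). In DP KO Gzma and Tyrobp rose (0.74 and 1.30, limma adjusted p = 0.000994 and 0.00031), while Nkg7, Klrd1, Klrb1c and Klre1 were not called and Ncr1 was at 0.844 and 0.224 RPKM in control against 0 and 0.0719 in KO. The 5 mast cell markers, mostly Cpa3, summed to 10.0 and 12.6 RPKM in ISP control against 24.6 and 29.9 in ISP KO. In the CD25 libraries of both genotypes Cpa3 was at 23.4 to 28.9 RPKM and the other mast cell markers were at 0. The 5 plasmacytoid dendritic markers, of which Ccr9 took most, were lower in DP KO (266 and 200.5 RPKM against 353 and 376), and Siglech was at most 0.266 RPKM. Ccr9 ranged over 9.44 to 12.4 RPKM in CD25, over 61.8 to 108 in ISP and over 197 to 370 in DP libraries. Like Cd4 it was highest in DP cells, so this sum cannot stand for plasmacytoid cells. B lineage markers summed to at most 0.387 RPKM. Their part in the members' differences was not tested, and in bulk RNA fewer cells of a type and less RNA per cell cannot be told apart.

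Sex-linked transcripts also separated the anti-CD3 genotypes. Ddx3y, a Y-linked gene, did not exceed 0.0979 RPKM in any of the 4 KO libraries after anti-CD3 and ranged from 7.28 to 56.3 in the 4 controls, so fetal sex and genotype cannot be told apart there. In both ISP and DP, control library 2, which had Xist (transcribed from the inactive X chromosome) at 0.766 and 0.914 RPKM, was below control library 1 for 29 members. All 4 CD25 libraries carried both transcripts, Xist at 9.79 to 17.48 and Ddx3y at 7.61 to 19.8 RPKM.

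Between populations, most members were highest in CD25 cells and lower after anti-CD3. From CD25 to ISP cells 35 of 39 tested members fell and 1 rose, with a median of -1.24, where 33.1% of genes rose and 30.9% fell. From ISP to DP 19 fell and 7 rose, with a median of -0.21, where 35.6% rose and 35% fell. From CD25 to DP cells 33 fell and 3 rose, where 37.3% rose and 38.4% fell; this comparison shares its libraries with the steps before it. When the 8 anti-CD3 libraries were pooled and set against CD25, where library names do not contradict the titles, 35 members fell and 1 (Ifit2) rose, with a median of -1.39, where 35.6% of genes rose and 36.5% fell. Stage and culture with anti-CD3 cannot be told apart in the steps from CD25. The 8 NK and innate lymphoid markers also differed between populations, with sums between 590.2 and 779 RPKM among CD25 libraries, between 1031 and 1247 among ISP and between 112 and 217 among DP, and their part in the members' steps was not tested. By mean RPKM, 25 of 40 members stood in the order CD25, ISP, DP and 11 in the order CD25, DP, ISP. With libraries rescaled to equal sums the median of all tested genes from ISP to DP moved from 0.01 to 0.16, the background became 47.2% higher and 26.8% lower, and the members' counts became 9 higher and 17 lower. From CD25 to ISP the rescaled background was 24.7% higher and 40.6% lower, and the members' counts were again 1 higher and 35 lower.

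**Figure D4:**
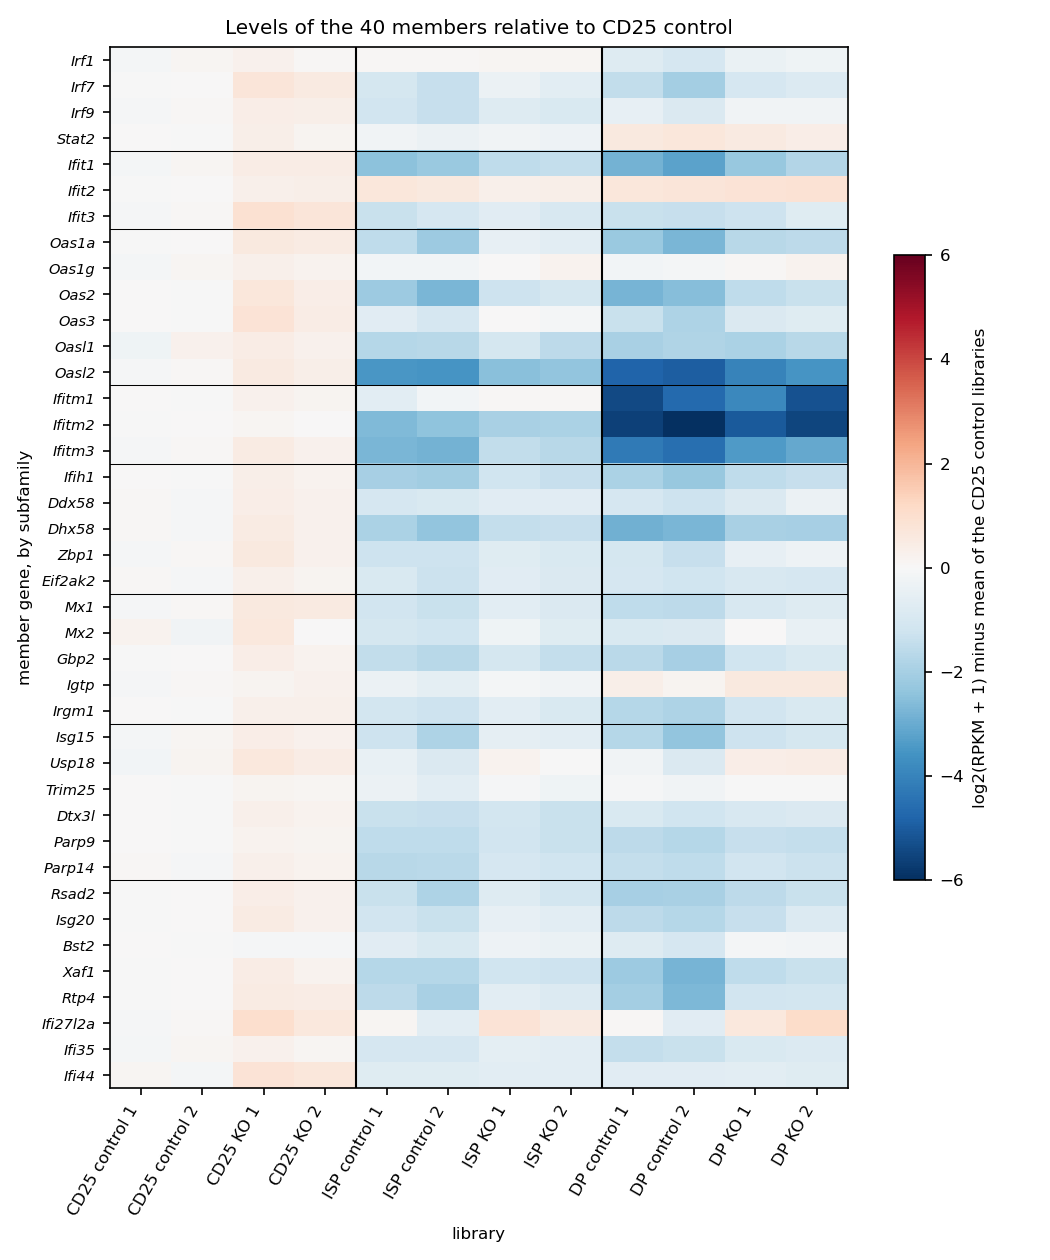
Level of the 40 members (rows, in subfamily blocks) in the 12 libraries (columns), as log2(RPKM + 1) minus the mean of the CD25 control libraries; blue is lower and red higher. Most squares in ISP and DP columns are blue, deepest for Oasl2 and the Ifitm genes in DP, while Stat2, Igtp and Ifit2 are red in DP, and ISP and DP KO columns tend to be paler than control columns.

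The Ifitm genes had the lowest subfamily median at both steps, -2.27 from CD25 to ISP and -3.34 from ISP to DP. Ifitm2 averaged 448 ± 21.1 RPKM in CD25 (SD, n = 4 libraries of both genotypes, as below), 94.1 ± 23.6 in ISP and 8.52 ± 2.94 in DP cells, a mean 52.5 times higher in CD25 than in DP. It fell by 2.27 ± 0.12 from CD25 to ISP (limma adjusted p = 8.79e-09) and by 3.34 ± 0.12 from ISP to DP (limma adjusted p = 3.78e-10). Ifitm1 was not called by limma from CD25 to ISP, with 162 ± 14.2 RPKM in CD25 and 137 ± 28.8 in ISP (-0.26, limma adjusted p = 0.36; voom called it lower), and then fell by 4.62 ± 0.24 to 5.06 ± 3.18 RPKM in DP (limma adjusted p = 7.49e-09). No DP library overlapped the ISP range of any Ifitm gene. Ifitm3 averaged 298 ± 50.5, 61.9 ± 29.3 and 19.2 ± 9.20 RPKM, and fell at both steps by 2.36 ± 0.09 and 1.62 ± 0.09 (limma adjusted p = 6.19e-10 and 9.6e-09). The DP value of Ifitm3 was thus the highest of the family, whereas Ifitm2 was the highest in CD25 cells.

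Most tested Oas and Ifit genes fell mainly at the step to ISP, with Oas3 and Ifit2 as exceptions. For Oas3 the ratio of mean RPKM was 1.94 for CD25 over ISP and 2.18 for ISP over DP. Oasl2 averaged 45.8 ± 8.96 RPKM in CD25, 4.32 ± 2.22 in ISP and 1.15 ± 1.01 in DP cells, and fell by 3.22 ± 0.11 and 1.33 ± 0.11 (limma adjusted p = 2.13e-10 and 2.59e-07). Oas2 fell by 2.07 from CD25 to ISP and was not called from ISP to DP (-0.26, limma adjusted p = 0.0824). Oas1a and Oas3 fell at both steps, by 0.84 and 0.74 from ISP to DP (limma adjusted p = 0.000196 and 0.00044). Ifit1 averaged 30.2 ± 5.97, 6.28 ± 2.42 and 3.87 ± 2.14 RPKM and fell by 2.14 ± 0.12 to ISP (limma adjusted p = 1.73e-08). Ifit2, beside it on chromosome 19, was the single member that rose at both steps, averaging 6.15 ± 0.977, 7.82 ± 1.07 and 9.80 ± 0.634 RPKM (0.31 ± 0.06 and 0.30 ± 0.06, limma adjusted p = 0.000954 and 0.000914). Neighbouring stages overlapped for Ifit2 between CD25 and ISP (5.27 to 7.08 and 6.87 to 9.09 RPKM) and, narrowly, between ISP and DP (9.07 to 10.5).

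The Irf and Stat genes did not share a pattern. Irf1 stayed level from CD25 to ISP, at 37.9 ± 3.90 and 38.2 ± 0.797 RPKM, and fell by 0.70 to 23.5 ± 5.52 in DP (limma adjusted p = 1.69e-06). Stat2 fell from 14.4 ± 1.82 to 10.6 ± 0.472 RPKM in ISP and rose by 0.82 ± 0.07 to 19.6 ± 1.79 in DP (limma adjusted p = 3.56e-07), above its CD25 level. Irf9 had the same low point, with 47.8 ± 7.43, 19.7 ± 3.89 and 30.6 ± 6.45 RPKM and a rise of 0.60 ± 0.08 from ISP to DP (limma adjusted p = 2.98e-05), while Irf7 fell at both steps.

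Of the 24 sensors, GTPases, ISG15-group genes and other effectors, 23 fell from CD25 to ISP, where 30.9% of all genes fell. From ISP to DP 9 of them were called lower again (Dhx58, Irgm1, Isg15, Parp9, Ifi35, Isg20, Rsad2, Rtp4 and Xaf1), 4 rose and 11 were not called. Over all genes 35% fell and 35.6% rose at that step, so the share that fell was near the background. The call of Parp9 was lost after rescaling, with ISP and DP libraries fitted as pairs, and in some fits that left out 1 library. All 5 sensors fell from CD25 to ISP, for example Ifih1 from 13.2 ± 1.64 to 3.18 ± 1.28 RPKM, and from ISP to DP Dhx58 fell by 0.62 and Zbp1 rose by 0.23 (limma adjusted p = 0.049), a call lost with a pseudocount of 0.1, with no filter, with the replicate block and without library 1 or 2 of ISP control, library 2 of ISP KO, library 1 of DP control or library 2 of DP KO. Igtp was the GTPase that rose from ISP to DP, from 59.0 ± 8.31 to 98.5 ± 13.3 RPKM (0.73 ± 0.06, limma adjusted p = 2.5e-07), above its CD25 mean of 78.3 ± 7.22. Dtx3l and Trim25 rose from ISP to DP by 0.32 and 0.26 (limma adjusted p = 0.00134 and 0.00756). Bst2 kept a high level throughout, with 302 ± 10.1, 211 ± 38.9 and 225 ± 67.3 RPKM. Ifi27l2a averaged 31.9 ± 11.7, 28.1 ± 11.2 and 30.4 ± 15.7 RPKM and was not called at either step. Ifi44, with 18 to 66 reads in CD25 libraries and 3 at most in the others, passed the filter only through CD25 KO libraries, so its fall was set in part by that choice. When the step from ISP to DP was fitted only on libraries whose title and sequencing library name give the same population, the calls were 5 higher (Dtx3l, Igtp, Irf9, Stat2 and Trim25) and 5 lower (Ifitm1, Ifitm2, Ifitm3, Irf1 and Oasl2). These are 5 of the 7 higher and 5 of the 19 lower calls of the main fit. The restricted fit held 4 libraries, and the share of all genes called in it is not given.

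Ligands, receptors and kinases upstream of the members showed other patterns. Ifnb1, Ifna1, Ifna2, Ifna4, Ifnl2 and Ifnl3 were listed at 0 in all 12 libraries, as was the receptor chain Ifnlr1. Ifng, the type II ligand made by NK and T cells, was at 2.35 and 2.63 RPKM in ISP control and 2.84 and 3.64 in ISP KO, and at most 0.456 RPKM elsewhere. It was not called between genotypes in ISP (0.28, limma adjusted p = 0.584) and rose from CD25 to ISP by 1.61 (limma adjusted p = 6.13e-07). Ifnar1, of the type I receptor, was at 17.3 and 17.9 RPKM in DP control and 15.8 and 14.5 in DP KO (-0.20, limma adjusted p = 0.0899), not called. Across populations Ifngr1, of the type II receptor, rose at both steps, from 134 to 180.1 RPKM in CD25 to 245 to 269.8 in ISP and 427 to 466 in DP, the opposite course to most members. The kinase genes Jak1 and Jak2 fell in DP KO by 0.36 and 0.26 (limma adjusted p = 0.00226 and 0.0423), where 7.77% of all genes fell.

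Interferon-induced genes outside the 40 members showed part of the same differences. Of 45 further such genes tested, 16 (35.6%) rose and 2 (4.44%) fell in DP KO, where 14.1% and 7.77% of all genes did, and 1 of 45 (2.22%) rose in ISP KO (Trim30a, 0.62, limma adjusted p = 0.0257), where 0.257% did. In CD25 none passed limma's adjusted threshold, 45 of 45 were above 0, and 23 (51.1%) were higher at an unadjusted p under 0.05, where 4.79% of all genes were. In DP KO, Nmi, which binds Stat proteins, rose by 0.62, Ifi204, a DNA sensor, by 0.92, Trim30a by 0.63 and Gbp7 by 0.62 (limma adjusted p = 0.000499, 0.00192, 0.00194 and 0.002). Those that fell were Gbp4 and Parp11. Among the inhibitors, the phosphatase genes Ptpn2 and Ptpn6 rose in DP KO by 0.27 and 0.28 (limma adjusted p = 0.0185 and 0.0219). Of the genes that sense nucleic acid upstream of interferon, Mb21d1 (cGAS) and Tlr7 rose and Ikbke fell. Over all tested genes 14.1% rose and 7.77% fell in DP KO. Shares of the inhibitor and sensing lists are not given, so these are single genes and not a result about the lists. From CD25 to ISP, 40 of the 45 further induced genes fell and 2 rose, led by Ifi204 (-4.71 ± 0.11, limma adjusted p = 9.98e-12), where 33.1% of all genes rose and 30.9% fell. From ISP to DP 15 (33.3%) rose and 18 (40%) fell, near the background of 35.6% and 35%.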

How the data were processed

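RNA was measured in 12 libraries, and the groups follow the sample titles. The authors deposited 1 normalized value per gene and library, taken here as RPKM, from reads aligned with BWA to GRCm38, per the submitters' processing notes. The labels name no unit; it was read from the values, each of which is a multiple of a step that scales with gene length and library. Counter, annotation and strand setting: not given in the sources used here. Of 169595 values above 0, all came out as whole reads within 0.02 reads, and 4 entries with a repeated name were left out. Values were tested as log2(RPKM + 1) in limma 3.58.1 (R 4.3.3, trend option), keeping genes that reached 1 RPKM in 2 or more of the libraries fitted, with Benjamini-Hochberg adjustment over all tested genes. The genotype comparison in CD25 cells used its 4 libraries (2 residual degrees of freedom), and the others all 12 libraries in a fit of 6 groups (6 degrees of freedom). The procedure was also run on simulated data in which noise was drawn independently for each gene. Members moved together between libraries, so that run does not bear on the counts of members. Full statistics went to the called members with the largest differences, up to 6 a direction, and, with fewer than 3 called, to the 6 with the smallest p; further pathway genes were up to 4 per list with the smallest p. Eif2ak2, Gbp4, Parp11 and members given for their subfamily or direction are named beyond that. Alternatives were voom on recovered reads, another pseudocount, no filter, rescaling, leaving out each library, a replicate block and grouping by library name. A gene of the pathway lists is not reported here. The members and lists were chosen with earlier results of these data known. Python 3.11.15 with pandas 2.3.3 and matplotlib 3.10.9 made tables and plots.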

Additional observations from a re-analysis of the deposited data

Results flagged for a closer look

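The difference between KO and control libraries was itself tested between DP and CD25 cells, and 3 members passed limma at an adjusted p under 0.05. It was larger in DP than in CD25 cells by 0.84 on the log2(RPKM + 1) scale for Bst2, by 0.82 for Rtp4 and by 0.76 for Ifitm3. Bst2 was lower in both KO than in both control libraries of CD25 cells and higher in both KO libraries of DP cells, while Rtp4 and Ifitm3 were higher in KO in both populations.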

How the results depend on the processing

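Pseudocount, filter, rescaling, voom and single-library changes moved counts of called members. Of the differences named in each comparison, they reversed only the genotype difference of Ifi44 in ISP minus that in CD25. With voom it was 1.37, and it rests on 3 reads or fewer in each ISP library. The fall of Ifi44 from CD25 to ISP was still called with voom. Voom called 2 members in CD25 KO, 17 in ISP KO, 1 each for the genotype difference between ISP and CD25 and between DP and ISP, and 6 higher and 1 lower between DP and CD25. With no filter ISP KO had 1 call, and DP against CD25 had 1 higher and 1 lower; that test had 6 with a pseudocount of 0.1 and 2 lower after rescaling. Leaving out 1 library at a time gave 0 to 10 calls in CD25 KO, 1 to 6 in ISP KO and 13 to 27 in DP KO; for the genotype difference, 0 to 1 between DP and ISP, and 1 to 5 higher and 0 to 1 lower between DP and CD25. The fit restricted to libraries with matching names, chosen after seeing the data, had 5 lower members from ISP to DP.

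Grouping by sequencing library name sets libraries titled ISP against libraries titled DP in the genotype comparisons of the anti-CD3 cells. ISP KO then had 4 lower members, with Oas2 at -0.055, Oas1a -0.74, Ifitm3 -1.54, Oasl2 -1.27, Rtp4 -0.52 and Ifih1 -0.075. DP KO had 4 higher and 5 lower, with Rtp4 at -0.49, Oas2 -0.47, Ifi27l2a -0.13, Ifitm3 -1.71, Oasl2 -1.39 and Xaf1 -0.38. From ISP to DP 0 were higher and 0 lower, with Ifit2 at -0.0041, Ifitm1 0.034, Ifitm2 0.19, Ifitm3 0.045, Oas1a 0.30 and Oas3 0.23, and from CD25 to DP 1 was higher. The genotype difference between ISP and CD25 had 1 higher and 4 lower, with Ifit2 at 0.0071, Ifitm3 -1.91, Oasl2 -1.71 and Oas2 -0.59. Between DP and ISP it was -0.10 for Ifit2, -0.028 for Bst2, -0.25 for Irgm1 and -0.034 for Zbp1. Between DP and CD25 it had 1 higher and 5 lower, with Rtp4 at -0.94 and Ifitm3 -2.08.

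With the replicate number as a block, 0 members were called in CD25 KO, 7 in ISP KO and 29 in DP KO, and 6 higher and 18 lower from ISP to DP. Deviations of same-numbered libraries correlated at -0.07 to 0.12 over 15 pairs of groups, and 1 pair was above 0.1, ISP control with DP control, where library 2 also had the lower Xist in both. Ddx3y was the higher in library 2 of both, at 7.28 and 29.7 RPKM in ISP control and 15.7 and 56.3 in DP control. The numbers were not taken to pair the libraries across all groups, and the main fit treats them as independent. With ISP and DP libraries of the same genotype and number fitted as pairs, 7 members were higher and 17 lower from ISP to DP. Low counts limit Oas1g in every group and Ifi44 in the ISP and DP groups.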
